A study of Mus musculus with 2 samples.

Results

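The genes of the proteasome were examined in the peak lists of a ChIP-seq study of ETS1 and ETS2 in mouse aortic endothelial cells. Members were the protein-coding genes whose symbol begins with Psm, a letter from a to g and a number, which gave 51 of the 21887 protein-coding genes on chromosomes 1 to 19, X and Y in the RefSeq table of GRCm38.p6, the assembly called mm10. They comprised 49 genes of the core particle, its regulatory caps and their assembly factors. The other two, Psmc3ip and Psme3ip1, share only the symbol. Psmc3ip encodes a cofactor of meiotic recombination and Psme3ip1 a binding partner of the activator encoded by Psme3.

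Endothelial cells were isolated from mouse aorta and kept in a rich medium (DMEM-F12 with 20% FBS, heparin and the supplement labelled ECGS), and their chromatin was precipitated with 10 µg of an antibody, in 1 group against ETS1 and in the other against ETS2. No other treatment or allele is named. Each antibody gave 1 library, so the 2 groups have no replicates, and a difference between the antibodies cannot be told apart from a difference between the libraries. The genotype, age, sex and strain of the mice, and whether animals were pooled, are not given in the sources used here. The ETS1 list held 77295 peaks from 143778022 sequenced tags and the ETS2 list 63556 peaks from 134607908 tags, and an input library was not analysed here, so a peak is a place with many tags and is not shown to be a binding site. Peaks measure no RNA, so the labelled cell type could be described only by whether its marker genes carried a peak within 1 kb of an end. Of 6 endothelial markers, 0 had an ETS1 peak there and 3 an ETS2 peak (Cdh5, Kdr and Emcn). The shares of all protein-coding genes were 39.4% and 40%. The ETS2 peak lay at the end with the higher coordinate in Cdh5 and Emcn and the lower in Kdr. Whether these ends are starts was not examined. Of the other markers, 1 and 1 of 3 smooth muscle, 1 and 2 of 3 fibroblast and 1 and 1 of 2 leukocyte genes had such peaks. Acta2 (smooth muscle), Col1a1 (fibroblast) and Cd68 (leukocyte) each carried overlapping peaks of both lists, and Dcn (fibroblast) an ETS2 peak alone.

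The proteasome degrades proteins tagged with ubiquitin. Its barrel, the 20S core, is built of rings of alpha subunits, which gate the entrance, and rings of beta subunits, of which Psmb5, Psmb6 and Psmb7 encode the constitutive proteases. The 19S cap recognises, deubiquitinates, unfolds and feeds in the substrate, and interferon signalling exchanges the proteases for the products of Psmb8, Psmb9 and Psmb10, which form the immunoproteasome and favour peptides for MHC class I. In endothelium the proteasome is known for controlling NF-kappaB through degradation of its inhibitors. ETS factors recognise a GGAA core, and CCGGAAG is a form of their site that is common in promoters of housekeeping genes.

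The promoters below are shown because each holds the ETS motif near the start and together they cover members marked in both lists, in the ETS1 list and in the ETS2 list. Most peak centres lay outside this stretch: 7 of 31 nearest ETS1 centres and 5 of 30 nearest ETS2 centres at member starts fell within it. Each runs 5′ to 3′ on the gene's strand, from 150 bases before the annotated start to 29 after it (RefSeq, GRCm38.p6), with CCGGAAG or its reverse complement CTTCCGG in capitals. In the promoters of Psmc2 (chr5:21785125-21785304, plus strand), Psmg3 (chr5:139826865-139827044, minus strand) and the internal start of Psma6 (chr12:55398675-55398854, plus strand), a copy of the motif lay inside a peak of both lists. In that of Psmd6 (chr14:14120916-14121095, minus strand) it lay inside an ETS1 peak, with no ETS2 peak within 1 kb. In that of Psmd13 (chr7:140882244-140882423, plus strand) only an ETS2 peak lay within 1 kb of the start, and its centre, 232 bp upstream, is outside the sequence shown.
Psmc2: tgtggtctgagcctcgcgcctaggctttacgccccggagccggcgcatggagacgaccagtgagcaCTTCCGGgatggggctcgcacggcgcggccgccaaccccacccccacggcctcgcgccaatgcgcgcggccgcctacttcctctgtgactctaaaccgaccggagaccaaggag
Psmg3: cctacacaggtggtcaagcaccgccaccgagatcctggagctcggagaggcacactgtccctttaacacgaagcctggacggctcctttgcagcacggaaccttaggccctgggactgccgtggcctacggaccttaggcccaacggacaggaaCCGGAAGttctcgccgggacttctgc
Psma6: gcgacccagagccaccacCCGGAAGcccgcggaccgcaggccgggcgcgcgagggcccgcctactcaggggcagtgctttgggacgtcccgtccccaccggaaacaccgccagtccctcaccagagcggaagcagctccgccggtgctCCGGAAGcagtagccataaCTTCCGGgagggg
Psmd6: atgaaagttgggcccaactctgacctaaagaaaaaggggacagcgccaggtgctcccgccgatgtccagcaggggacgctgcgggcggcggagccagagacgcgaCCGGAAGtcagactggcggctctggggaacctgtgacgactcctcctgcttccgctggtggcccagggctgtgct
Psmd13: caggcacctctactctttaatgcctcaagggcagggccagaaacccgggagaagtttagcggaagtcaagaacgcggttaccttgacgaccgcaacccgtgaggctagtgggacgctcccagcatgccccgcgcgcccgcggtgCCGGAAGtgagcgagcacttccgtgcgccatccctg

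Proteasome genes carried peaks of either list more often than protein-coding genes did in general. A peak was assigned to a gene when its centre lay within 1 kb of either annotated end. An ETS1 peak was found at 36 of 51 members (70.6%, 95% Wilson interval 57 to 81.3), beside 39.4% of all protein-coding genes. An ETS2 peak was found at 33 members (64.7%, 51 to 76.4), beside 40% of all genes. Both lists marked 25 members (49%, 35.9 to 62.3), beside 28.7% of all genes, and at 18 of these the ETS1 and the ETS2 peak overlapped by at least 1 bp (35.3%, 23.6 to 49), beside 19.1% of all genes. Another 11 members had an ETS1 peak without an ETS2 peak, and 8 the reverse. Over all 21887 genes, 8616 had an ETS1 peak, 8745 an ETS2 peak and 6275 both. At least 1 list marked 44 members (86.3%), beside 50.7% of all genes, so 49.3% of all genes were marked in neither. The 7 members marked in neither were Psma8, Psmb5, Psmb6, Psmb7, Psmb11, Psmd10 and Psmf1. Intervals cover counting error over genes only.

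**Figure D1:**
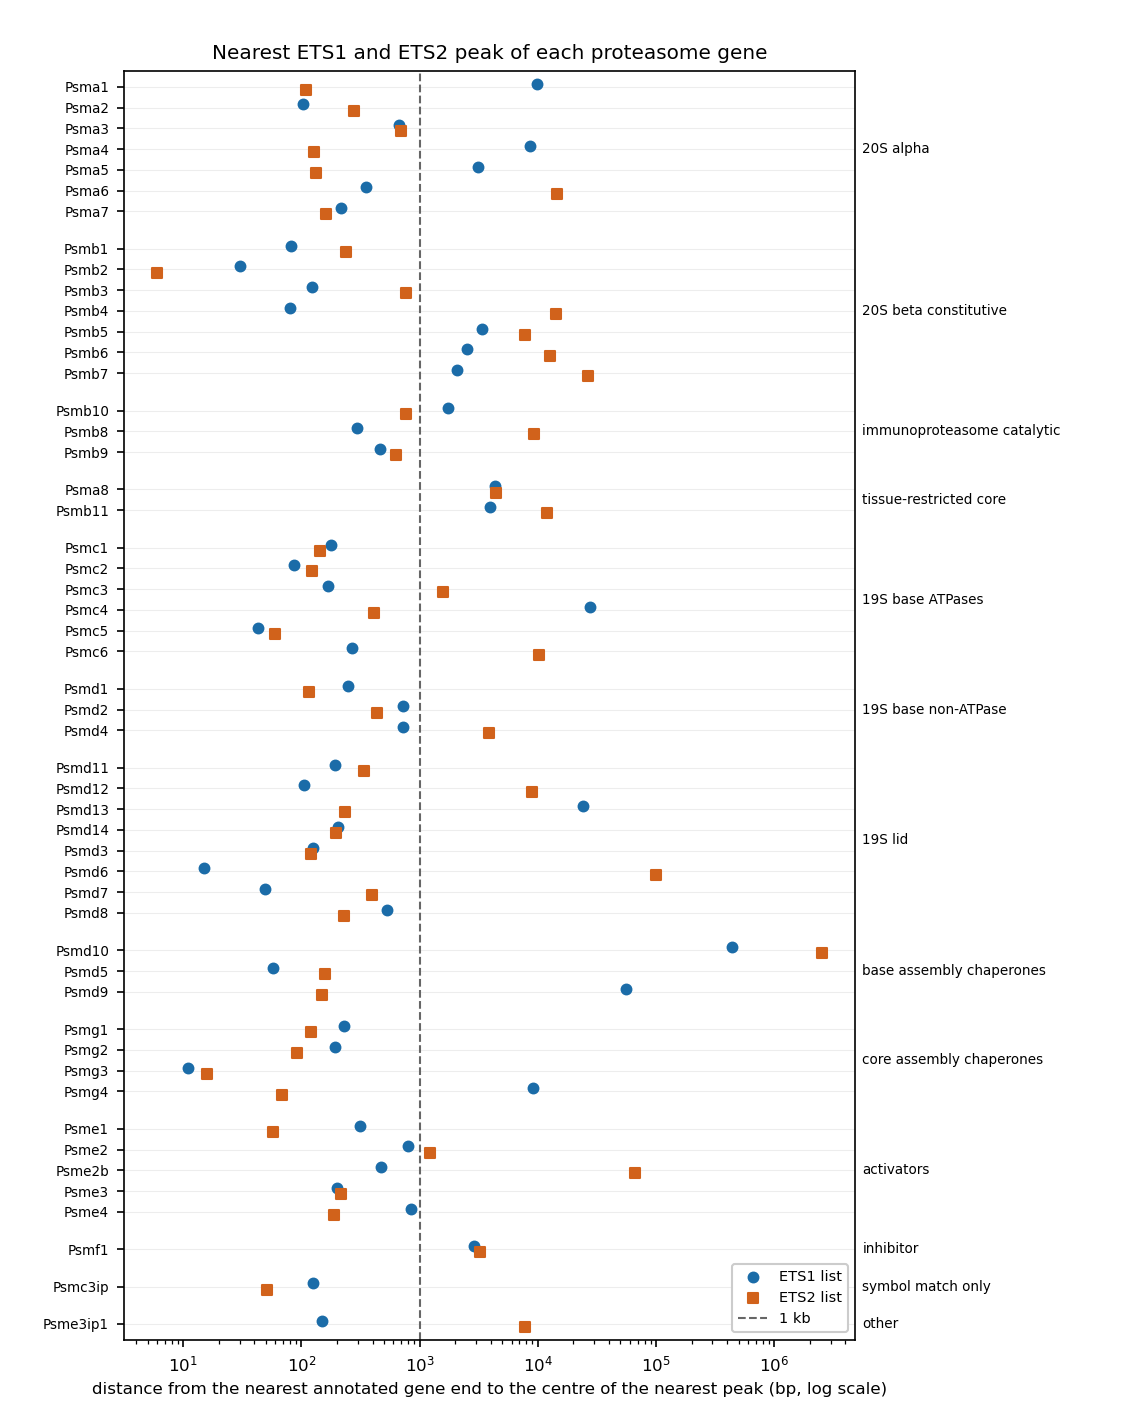
Distance in bp (log scale) from the nearest annotated end of each of the 51 genes to the centre of the nearest ETS1 peak (circles) and ETS2 peak (squares), by role, with a dashed line at 1 kb. Circles lie left of the line for 36 genes and squares for 33, and both symbols of Psmb5, Psmb6 and Psmb7 lie right of it.

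The peaks lay mainly at starts of transcription. A start was given in the RefSeq promoter table for 43 members. An ETS1 peak lay within 1 kb of a start of 31 of them (72.1%), beside 38.5% of 17492 protein-coding genes with a start, and an ETS2 peak at 30 (69.8%), beside 40.4%. Both lay at the start of 22 (51.2%), beside 29.2%, and overlapped there at 15 (34.9%), beside 20% of those genes. At the finish, 4 members had an ETS1 peak (9.3%, beside 10.1% of all genes) and 1 an ETS2 peak (2.33%, beside 8%). Both lists marked the finish of 0 members (beside 3.45%), and overlapping peaks that of 0 (beside 2.2%). The nearest ETS1 centre fell downstream of the start in 22 of the 31 members and upstream in 9, and the nearest ETS2 centre in 19 and 11 of the 30. The median distance was 202 bp for ETS1 and 158 bp for ETS2, beside 228 and 217 bp over all genes with a start peak.

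**Figure D2:**
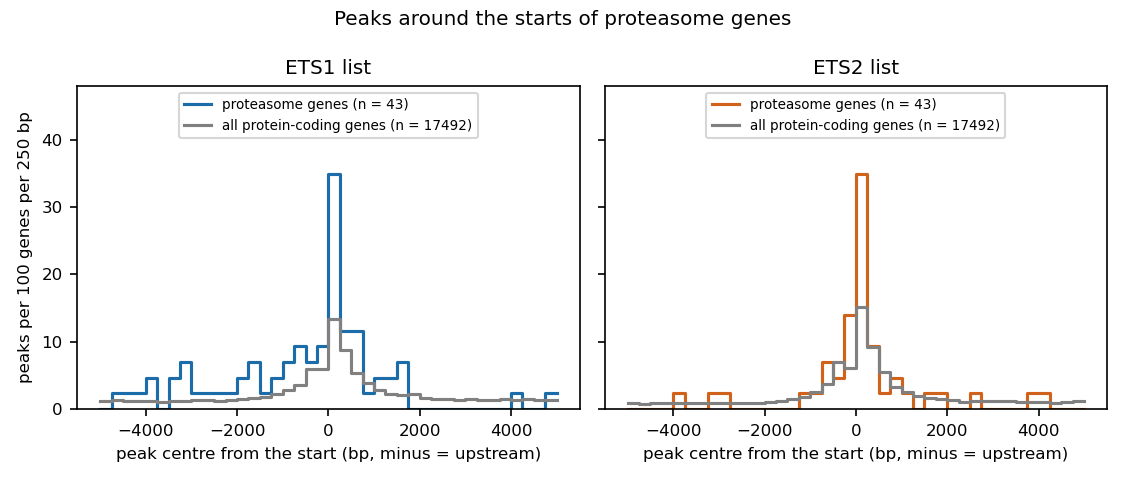
Peaks per 100 genes in bins of 250 bp, by distance of the peak centre from the first listed start (bp, minus is upstream), for 43 proteasome genes (coloured) and 17492 protein-coding genes (grey). The highest bin of either list is the 250 bp after the start, with 34.9 peaks per 100 proteasome genes in each list, beside 13.4 (ETS1) and 15.1 (ETS2) for all genes.

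The gap to all genes depended on promoter composition: it was smaller among CpG-rich promoters than over all starts, and among the other promoters it was larger for ETS1 and about the same for ETS2. A promoter was called CpG-rich when GC content was at least 50% and the observed to expected CpG ratio at least 0.6 over its 300 bases. This held for 30 of 43 members (69.8%) and for 48.3% of all genes with a start. Among the CpG-rich, an ETS1 start peak was found at 22 of 30 members (73.3%, 55.6 to 85.8) and 62% of all genes, an ETS2 peak at 24 (80%, 62.7 to 90.5) and 66.3%, and both at 18 (60%, 42.3 to 75.4) and 50.1%. Overlapping peaks were found at 12 of them (40%, 24.6 to 57.7) and 34.4% of all such genes. Each share of all genes lies inside the members' interval, which covers counting error over genes only and is no test of a difference. For members with other promoters no interval is given. Among the 13 members with other promoters, 9 had an ETS1 start peak (69.2%), beside 16.4% of all such genes, and 6 an ETS2 start peak (46.2%), beside 16.3%. These 13 include the interferon-responsive Psmb8, Psmb9, Psmb10, Psme1 and Psme2.

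Peak lists were uneven over chromosomes, and this touches members found in a single list. Averaged over the members' own chromosomes, 44.6% of protein-coding genes had an ETS1 and 40% an ETS2 end peak. Of the 4 members on chromosome 7, where 18.4% of genes had an ETS1 end peak and 30.5% an ETS2 end peak, Psma1, Psmc4 and Psmd13 were in the ETS2 list alone and Psmd8 was in both. On chromosome 11, with 57.1% and 46.2%, 9 of 10 members had an ETS1 and 7 an ETS2 peak. On chromosome 14, with 41% and 33.7%, 4 of 6 had an ETS1 peak and 1 (Psme1) an ETS2 peak. Psmd10 lies on the X chromosome, where 2.38% and 0.621% of genes had one. The part of chromosome density in the calls of single members was not tested.

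The alpha subunits form the outer rings of the core and its gate. An ETS2 end peak was found at 6 of 7 of their genes and an ETS1 end peak at 4, beside 40% and 39.4% of all genes. In the first 50% of each deposited list ETS2 no longer led, with 2 (ETS2) and 3 (ETS1), beside 29% and 29.1% of all genes. In the first 10000 peaks each list marked 1, beside 14.4% (ETS2) and 13.7% (ETS1) of all genes. In Psma7 an ETS1 and an ETS2 peak overlapped (chromosome 2, 180043139 to 180043315 and 180043118 to 180043304), and another pair, which overlapped too, lay nearer the start, 216 bp (ETS1) and 161 bp (ETS2) downstream of it. The starts of Psma7 and Ss18l1, which encodes a chromatin remodelling subunit, lie 19 bp apart on opposite strands. Psma3 carried overlapping peaks at its lower end (chromosome 12, 70968530 to 70968706 and 70968499 to 70968685), and other peaks lay 509 bp (ETS1) and 405 bp (ETS2) downstream of its annotated start, which lies 5340 bp inside the gene. Psma2 carried an ETS1 peak 104 bp downstream and an ETS2 peak 281 bp upstream of its start, without overlap. Psma1, Psma4 and Psma5 had an ETS2 peak 109, 128 and 134 bp from an end, while their nearest ETS1 peaks lay 9936, 8584 and 3090 bp away.

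Psma6 shows what the choice of end does. Its ETS1 end peak lay 350 bp from the finish, and no ETS2 peak lay within 1 kb of an annotated end. Its second annotated start lies 14603 bp inside the gene and carried an ETS1 centre 58 bp and an ETS2 centre 162 bp upstream. Counted at starts, an ETS2 peak marked all 7 alpha genes, beside 40.4% of all genes with a start.

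Of the 7 constitutive beta subunit genes, 3 lacked an end peak in both lists, as did 49.3% of all genes. Psmb1, Psmb2, Psmb3 and Psmb4, which encode the structural beta subunits, had an ETS1 end peak in 4 of 4 and an ETS2 end peak in 3 of 4. The shares of all genes were 39.4% and 40%. Psmb5, Psmb6 and Psmb7, which encode the proteases, had an end peak in 0 of 3 in either list, a split that was noticed after the values were seen and carries no test. At Psmb1 the peaks overlapped by 26 bp (chromosome 17, 15498107 to 15498283 and 15497946 to 15498132). At Psmb2 the ETS1 centre lay 30 bp and the ETS2 centre 6 bp from the lower end (chromosome 4, 126677519 to 126677695 and 126677550 to 126677736). Psmb3 carried 3 ETS1 end peaks, of which 1 overlapped its ETS2 peak (chromosome 11, 97702637 to 97702813 and 97702573 to 97702759). Psmb4 had ETS1 peaks only, the nearest 80 bp from its start, and its nearest ETS2 peak lay 14176 bp away.

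The nearest ETS1 peaks of the protease genes lay 3399 bp (Psmb5), 2530 bp (Psmb6) and 2059 bp (Psmb7) from an end, and the nearest ETS2 peaks 7823, 12575 and 26772 bp. Both Psmb5 and Psmb6 have a CpG-rich promoter. Their promoters are shown because each holds TGACNNNGC, the pattern of the antioxidant response element through which NFE2L1 is known to raise proteasome transcription (capitals), and neither holds CCGGAAG (chr14:54617966-54618145, minus strand, and chr11:70525207-70525386, plus strand). The pattern is in 6 of 43 member promoters (14%), beside 14.8% of all, and 27 of the 43 lack CCGGAAG. Psmc6, Psmd9, Psmd12 and Psme4 hold the pattern too and carried a start peak. No role of the pattern at these genes was tested.
Psmb5: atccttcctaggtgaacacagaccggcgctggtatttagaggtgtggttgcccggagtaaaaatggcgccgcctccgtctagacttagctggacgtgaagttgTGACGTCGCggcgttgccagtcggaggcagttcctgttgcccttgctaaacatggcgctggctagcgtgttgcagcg
Psmb6: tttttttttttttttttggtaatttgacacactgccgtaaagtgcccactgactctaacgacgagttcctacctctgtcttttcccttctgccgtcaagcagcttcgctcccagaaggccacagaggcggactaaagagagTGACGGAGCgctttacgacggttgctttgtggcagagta

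The immunoproteasome proteases were each marked in at least 1 list. Psmb9 carried overlapping peaks 589 bp (ETS1, chromosome 17, 34187831 to 34188007) and 632 bp (ETS2, 34187869 to 34188055) upstream of its start. The same peaks lay 363 and 406 bp from the lower end of Tap1, the peptide transporter gene whose start lies 226 bp from that of Psmb9 on the opposite strand, so they cannot be assigned to either gene. Psmb8 had 2 ETS1 end peaks, the nearest 293 bp downstream of its start (34198400 to 34198576), and its nearest ETS2 peak lay 9369 bp from an end. Psmb10 (chromosome 8) had an ETS2 peak 767 bp downstream of its start and its nearest ETS1 peak 1731 bp away. An ETS1 and an ETS2 peak were thus each found at 2 of 3 genes, beside 39.4% and 40% of all genes. Another ETS1 peak of Psmb9 lay 465 bp from its lower end, which is the finish of this minus-strand gene. With that peak, the counts within 500 bp of an end were 2 and 0 of 3, beside 30.7% and 31.9% of all genes. None of the 3 immunoproteasome promoters holds CCGGAAG or the interferon response element within the 300 bases. The tissue-restricted core genes, Psma8 of testis and Psmb11 of thymus, had neither peak, the nearest lying 4349 and 3916 bp (ETS1) and 4472 and 12059 bp (ETS2) from an end. For Psmb5 and its neighbour Psmb11 the nearest ETS1 peak was the same (chromosome 14, 54621306 to 54621482).

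The 19S cap was compared with the constitutive core. An ETS1 end peak was found at 15 of 17 genes (88.2%) and an ETS2 end peak at 12 (70.6%), beside 8 (57.1%) and 9 (64.3%) of 14 constitutive core genes, and 39.4% and 40% of all genes. Of the cap genes 0 lacked both, beside 3 of 14 core genes and 49.3% of all genes. Counted at starts the numbers were 12 and 10 of 14 cap genes and 6 and 8 of 11 core genes, beside 38.5% and 40.4% of all genes. The immunoproteasome genes stood at 2 and 2 of 3 by either count, and 0 lacked both. Within 500 bp of an end the cap held 12 (ETS1) and 12 (ETS2) of 17 and the core 7 and 7 of 14. The shares of all genes at that distance were 30.7% and 31.9%. In the first 10000 peaks the cap held 9 (ETS1) and 2 (ETS2) of 17 and the core 5 and 3 of 14. The shares of all genes were then 13.7% and 14.4%. The order of the ETS2 shares thus turned round, on 2 cap and 3 core genes. These are counts of genes from 1 library each, and no difference between the complexes was tested. With CpG-rich promoters alone the ETS1 counts were 10 of 12 cap and 4 of 9 core genes, and the ETS2 counts 9 and 7. The shares of all genes with such a promoter were 62% (ETS1) and 66.3% (ETS2), and only the ETS1 count of the core lay below its share.

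**Figure D3:**
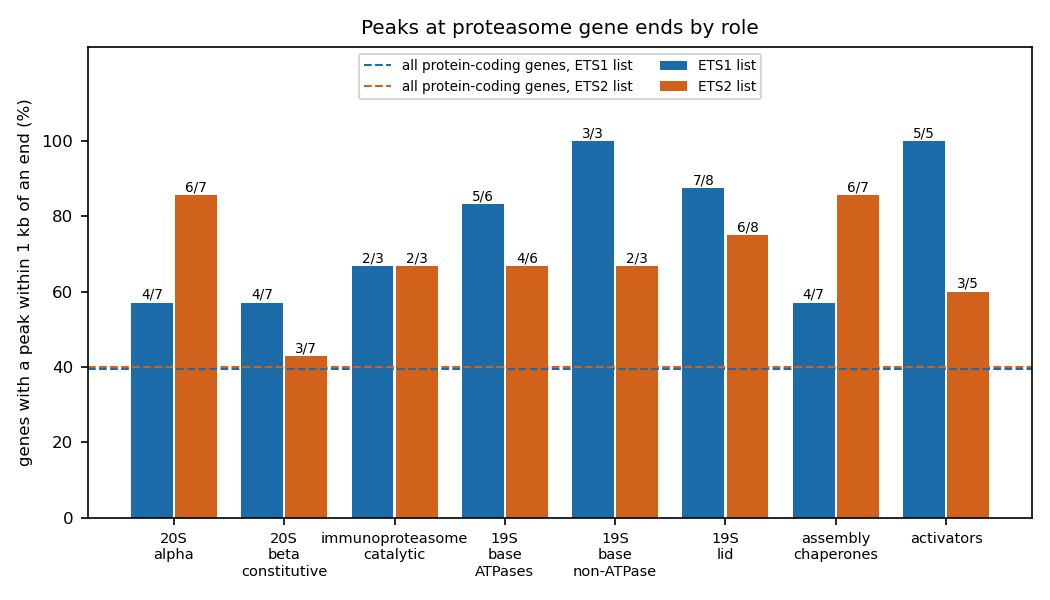
Share of genes (%) with an ETS1 peak (blue bars) or an ETS2 peak (orange bars) within 1 kb of an end, by role, with the number of genes over each bar and the share of all protein-coding genes as dashed lines (39.4% and 40%). The ETS1 bars of the cap and activator genes stand between 83.3% and 100%, and the lowest bar shown is the ETS2 bar of the constitutive beta subunits at 42.9%.

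Of the 6 ATPases that unfold the substrate at the base of the cap, 5 had an ETS1 and 4 an ETS2 end peak. The shares of all genes were 39.4% and 40%. At Psmc1 (chromosome 12, 100110292 to 100110468 and 100110252 to 100110438), Psmc2 (chromosome 5, 21785100 to 21785276 and 21785058 to 21785244) and Psmc5 (chromosome 11, 106256140 to 106256316 and 106256152 to 106256338) the peaks overlapped, with centres 35, 37 and 17 bp apart. The start of Psmc5 lies 101 bp from that of Ftsj3, an rRNA processing gene, on the opposite strand. Psmc3 and Psmc6 had ETS1 peaks alone, 168 and 268 bp from an end, and the nearest ETS2 peak of Psmc3 lay 1577 bp away. Psmc4 had an ETS2 peak alone, 409 bp downstream of its start.

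Among the other base subunits, Psmd1, a scaffold, carried overlapping peaks (chromosome 1, 86064778 to 86064954 and 86064642 to 86064828). Psmd2, the other scaffold, had peaks of both lists without overlap, 200 bp downstream (ETS1) and 97 bp upstream (ETS2) of its start. Psmd4, a ubiquitin receptor, had an ETS1 peak alone, 718 bp downstream of its start, and its nearest ETS2 peak lay 3860 bp from an end.

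In the lid, 7 of 8 genes had an ETS1 and 6 an ETS2 end peak, beside 39.4% and 40% of all genes. Within 500 bp of an end the counts were 6 and 6, beside 30.7% and 31.9% of all genes. Psmd14, the deubiquitinase that strips the chain from the substrate, carried peaks whose centres lay 10 bp apart (chromosome 2, 61711811 to 61711987 and 61711796 to 61711982). At Psmd3 the whole ETS1 peak lay within the ETS2 peak (chromosome 11, 98682592 to 98682768 and 98682582 to 98682768). Psmd11 carried 2 peaks of each list, of which 1 pair overlapped (chromosome 11, 80429240 to 80429416 and 80429120 to 80429306). Psmd7, the partner of Psmd14, and the scaffold gene Psmd8 had both peaks without overlap, with centres 346 and 300 bp apart. Psmd6 and Psmd12 were in the ETS1 list alone, 15 and 105 bp from an end, and Psmd13 in the ETS2 list alone, 232 bp upstream of its start.

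Assembly factors had an ETS2 end peak in 6 of 7 genes and an ETS1 end peak in 4 of 7, beside 40% and 39.4% of all genes. In the first 50% of each list the counts were 4 and 4, beside 29% and 29.1% of all genes. Psmg1 and Psmg2 encode a dimer that starts the alpha ring, and Psmg3 and Psmg4 encode a second dimer that assists it. All 4 had an ETS2 end peak and 3 also an overlapping ETS1 peak. At Psmg1 the peaks lay at 95990643 to 95990819 (ETS1) and 95990746 to 95990932 (ETS2) on chromosome 16, and at Psmg3 at 139826817 to 139826993 and 139826785 to 139826971 on chromosome 5. The Psmg3 centres lay 11 bp upstream (ETS1) and 16 bp downstream (ETS2) of the start. Psmg4 had the ETS2 peak alone, 69 bp downstream of its start. Of the chaperones of the ATPase ring, Psmd5 had both peaks without overlap, 61 bp upstream (ETS1) and 155 bp downstream (ETS2) of its start. Psmd9 (chromosome 5) had the ETS2 peak alone, 148 bp downstream of its start. Psmd10, also known as gankyrin, had neither.

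Activators dock on the core in place of the cap. All 5 of their genes had an ETS1 end peak and 3 an ETS2 end peak, beside 39.4% and 40% of all genes. Within 500 bp of an end the counts were 3 and 3, beside 30.7% and 31.9% of all genes. In the first 50% of each list they were 3 and 1, beside 29.1% and 29% of all genes. Psme1 and Psme2 encode the interferon-induced activator of the immunoproteasome. Psme1 had ETS1 peaks 314 bp upstream and 324 bp downstream of its start, and between them, without overlap, an ETS2 peak 57 bp downstream (chromosome 14, 55578458 to 55578644). Its promoter holds a copy of the interferon response element, written here as GAAA, any 2 bases and GAAA, on the opposite strand 9 bp after the start, and the ETS2 centre lay 43 bp from it. The element is in 5 of 43 member promoters (11.6%, beside 3.94% of all), the others being Psmb3, Psmd4, Psmd9 and Psmg4. In Psmg4 the copy lies 15 bp after the start, and the ETS2 centre lay 49 bp from it. No role of the element was tested. The promoter of Psme1 (chr14:55578344-55578523, plus strand) is shown with its copy in capitals.
Psme1: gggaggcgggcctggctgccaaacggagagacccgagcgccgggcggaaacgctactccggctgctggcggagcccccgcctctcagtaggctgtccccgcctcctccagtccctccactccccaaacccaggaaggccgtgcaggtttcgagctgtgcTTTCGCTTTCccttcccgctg

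Psme2 had an ETS1 peak 797 bp upstream of its start and its nearest ETS2 peak 1219 bp away, just outside the window. Psme2b had an ETS1 peak alone, 473 bp upstream. It is a close copy of Psme2, so reads of the coding sequence may not be told apart, and how such reads were treated is not given in the sources used here. Psme3, the nuclear activator, carried overlapping peaks with centres 15 bp apart (chromosome 11, 101316327 to 101316503 and 101316337 to 101316523). Psme4, an activator of acetylated histone degradation, had an ETS1 peak 847 bp downstream and an ETS2 peak 190 bp upstream of its start. Psmf1, a regulator first described as an inhibitor of the core, had no peak within 1 kb of an annotated end. Its annotated start lies 2889 bp inside the gene and carried an ETS1 centre 18 bp and an ETS2 centre 330 bp downstream (chromosome 2, 151741204 to 151741380 and 151740887 to 151741073), so it counts as marked in both lists at its start. Of the genes that share only the symbol, Psmc3ip had overlapping peaks and Psme3ip1 an ETS1 peak alone.

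The ETS motif was more frequent in proteasome promoters than in promoters in general, and its place among the complexes was uneven. CCGGAAG was searched on both strands in the 250 bases before and 50 after each start. It was found in 16 of 43 members (37.2%) and in 12.9% of 17492 protein-coding genes, and among CpG-rich promoters in 14 of 30 (46.7%) and 21.4%. It was found in 9 of 14 genes of the 19S cap, in 1 of 11 constitutive core genes (Psma6), in 0 of 3 immunoproteasome genes, in 2 of 6 assembly factors (Psmg1 and Psmg3) and in 2 of 5 activators (Psme3 and Psme4). The 4-letter core GGAA, which CCGGAAG contains, is in all 43 member promoters and in 96.4% of all, so it separates nothing. Both strands were also searched for other motifs known from this or the interferon pathway. TGACNNNGC was in 6 members (14%, beside 14.8%), CCAAT in 16 (37.2%, beside 42.3%), GGGCGG in 24 (55.8%, beside 49.2%), an NF-kappaB-like motif (GGGA, any 4 bases, CC) in 12 (27.9%, beside 25.6%) and the interferon response element in 5 (11.6%, beside 3.94%). A match is a run of letters and is not shown to be bound.

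Members with the motif carried an ETS1 start peak in 15 of 16 cases (93.8%), and those without it in 16 of 27 (59.3%). Over all protein-coding genes the shares were 67.2% with and 34.2% without the motif, and among CpG-rich promoters 74% and 58.8%. For ETS2 the members' shares were 11 of 16 (68.8%) and 19 of 27 (70.4%), beside 68.6% and 36.3% over all genes and 75.6% and 63.7% among CpG-rich promoters. Psmd13 was the member with the motif and no ETS1 start peak, and it lies on chromosome 7. A motif copy lay wholly inside an ETS1 peak in 5 of the 16 members (31.2%) and inside an ETS2 peak in 5, beside 19.5% and 11.7% of the 2265 protein-coding genes with the motif. It lay inside peaks of both lists in 4 (Psma6, Psmc2, Psmc3ip and Psmg3), beside 5.03% of those genes. In Psmd6 it lay inside the ETS1 peak alone and in Psmd2 inside the ETS2 peak alone. In the remaining 10 members with the motif it lay outside the peaks of either list.

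**Figure D4:**
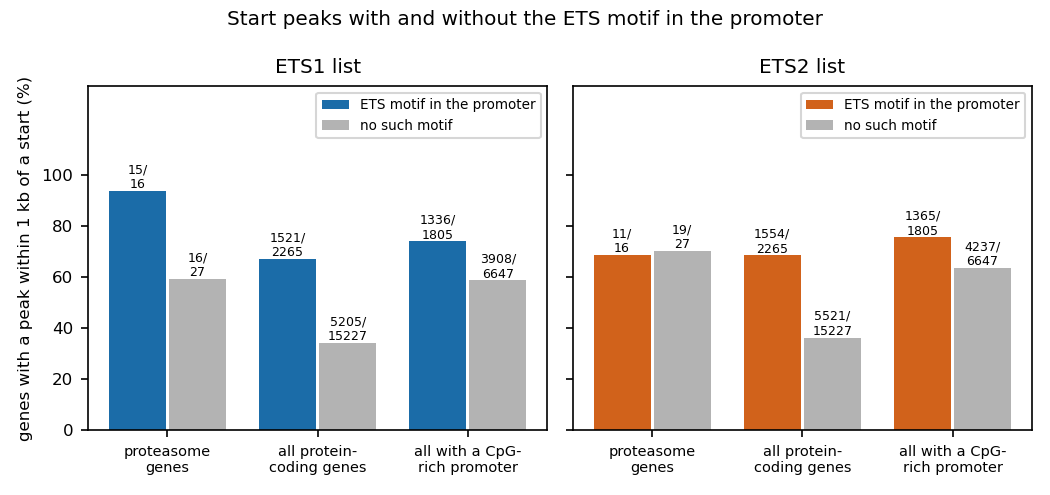
Share of genes (%) with an ETS1 (left) or ETS2 (right) peak within 1 kb of a start, for genes with CCGGAAG in the promoter (coloured bars) and without it (grey bars), among proteasome genes, all protein-coding genes and all with a CpG-rich promoter; gene numbers stand over the bars. The bars of the proteasome genes are 93.8% and 59.3% in the ETS1 list and 68.8% and 70.4% in the ETS2 list.

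Several members share a promoter with another gene. In 8 of 43 members (18.6%, beside 8.48% of all genes with a start) the start of another protein-coding gene lay upstream within 1 kb on the opposite strand. Besides Ss18l1, Tap1 and Ftsj3 the partners were Mrpl32 (Psma2, 205 bp), Sirt3 (Psmd13, 85 bp), Atg4a (Psmd10, 196 bp), Rnf31 (Psme2, 641 bp) and Rspry1 (Psme3ip1, 215 bp). An ETS1 start peak was found at 6 and an ETS2 start peak at 5 of these 8, beside 71.6% and 74.8% of all genes with such a partner. Of the 35 members without one, 25 had an ETS1 and 25 an ETS2 start peak (71.4% each), beside 35.4% and 37.3% of such genes.

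Where both lists marked a member, the peaks overlapped in 72% of cases, beside 66.7% of all protein-coding genes marked in both. The gap between the nearest ETS1 and ETS2 centres had a median of 59 bp over the 25 members, from 5 bp at Psmd3 to 1037 bp at Psme4. No such median over all genes is given here. The lists give no strength of a peak, and their deposited order is a coarse stand-in. The ETS1 order falls into 203 runs and the ETS2 order into 130, within each of which peaks are sorted by position, and the longest runs hold 14656 and 11941 peaks, so a place within a run depends on the chromosome. With that limit, the earliest end peak of a member stood at a median of 8.99% of the ETS1 order (36 members) and 21.4% of the ETS2 order (33 members), beside 22.7% and 25.2% over all protein-coding genes with an end peak. Over a gene and 10 kb around it, members held a median of 3 ETS1 peaks (0 to 12) and 2 ETS2 peaks (0 to 4), beside 2 and 1 for all protein-coding genes, whose median length is 17.2 kb beside 11.6 kb for the members.

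Other genes of the ubiquitin-proteasome route were counted in the same way. Of 30 listed genes, 29 matched a symbol of the gene table, and 20 of these had an ETS1 end peak (69%), 24 an ETS2 end peak (82.8%) and 18 both (62.1%), with overlap in 14. The shares were 70.6%, 64.7% and 49% for the proteasome genes and 39.4%, 40% and 28.7% for all genes, and no difference was tested. Nfe2l1, whose product raises transcription of proteasome genes when the proteasome is inhibited, carried overlapping peaks (chromosome 11, 96829635 to 96829811 and 96829689 to 96829875). Its processing factors Ngly1 and Ddi2 had both peaks and an ETS2 peak alone, the nearest ETS1 peak of Ddi2 lying 1464 bp from an end. Pomp, the maturation factor of the core, carried overlapping peaks (chromosome 5, 147860485 to 147860661 and 147860437 to 147860623), as did Adrm1, a ubiquitin receptor of the cap (chromosome 2, 180171353 to 180171529 and 180171386 to 180171572), and the cap's deubiquitinase genes Uchl5 and Usp14. Sem1, a small lid subunit, had an ETS2 peak alone, 212 bp from an end. Ecpas, Ubqln2 and Uba1 had neither, and Ubqln2 and Uba1 lie on the X chromosome.

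Sets of other cellular machinery were counted beside the proteasome genes. Genes named as cytosolic ribosomal proteins, 101 by symbol including some kinases and relatives that share the prefix, had an ETS1 end peak in 74.3%, an ETS2 end peak in 71.3% and both in 60.4%. For 78 mitochondrial ribosomal protein genes the shares were 70.5%, 73.1% and 57.7%, and for 37 genes of ubiquitin-conjugating enzymes 56.8%, 56.8% and 45.9%, beside 70.6%, 64.7% and 49% for the proteasome genes. Of the genes with both peaks, 72% of the proteasome genes carried overlapping peaks, beside 85.2%, 88.9% and 82.4% in these sets and 66.7% of all protein-coding genes. No difference between the sets was tested.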

How the data were processed

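ChIP-seq libraries of 1 ETS1 and 1 ETS2 immunoprecipitation were used as deposited peak lists. The tools named in the submitters' processing notes are CASAVA 1.8, Bowtie2 and HOMER, and the builds named there are mm9 and mm10. Per the file headers, peaks were called with HOMER findPeaks in factor style at a false discovery rate of 0.01 with 30 tags as the threshold, from tag directories named for mm10 and with no control directory in the command. Per the file headers, 1.89% (ETS1) and 1.53% (ETS2) of tags lay in peaks. In the deposited files every score equals 1, so it carries no ranking and was left out. The other deposited measurements are peak positions, 177 bp (ETS1) and 187 bp (ETS2) wide, given here 1-based.

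Peak centres were assigned to genes within 1 kb of either annotated end (RefSeq, GRCm38.p6) with Python 3.11.15, pandas 2.3.3 and scipy 1.17.1 (Wilson intervals at 95%), and the assignment was tested on simulated data. RefSeq promoters matched 43 of 51 members. With 1 library per antibody no test was run. Shares of members are given beside those of all protein-coding genes. Members, lists and role groups were chosen with earlier results of these data known. Every member may be named; coordinates are given first for members with overlapping peaks, then members of 1 list, then the rest. Sequences of chromosome 18 are not shown. Alternatives changed the window, the end, the part of the lists used, the overlap and the member rule. A comparison within CpG-rich promoters was added after seeing the data.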

Additional observations from a re-analysis of the deposited data

How the results depend on the processing

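The counts of members with an ETS1 peak, an ETS2 peak, both, and overlapping peaks were recomputed in 46 combinations of count and setting. In 36 the count was within 1.5 times the reported one, and in 42 the share of members exceeded that of all protein-coding genes under the same setting. The exceptions were the counts at the finish of transcription, with 4, 1, 0 and 0 of 43 members. In the first 10000 peaks of each deposited list the counts were 21, 12, 7 and 6 of 51 (41.2%, 23.5%, 13.7% and 11.8%). The shares of all genes were then 13.7%, 14.4%, 5.9% and 4.07%. The ETS2 count was 21 in the first 50% of its list (41.2%), beside 29% of all genes. These parts of the lists are cut within runs sorted by position, so chromosomes enter them unevenly. In CpG-rich promoters the ETS1 count at starts was 22 of 30, where fewer genes were counted, and 73.3% stood beside 62% of all such genes. The all-gene shares were 42% (ETS1), 42.7% (ETS2) and 30.7% (both) without olfactory and vomeronasal receptor genes. Of the 4 genes to be added to the members, Adrm1, Sem1 and Pomp matched a symbol. No paired analysis was possible because each antibody has 1 library. Without replicates or an input library, the depth of 143778022 and 134607908 tags limits only counting error, and a gene without a peak may carry tags below the threshold of 30.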

Other observations

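Pseudogenes named after a proteasome gene, which lie outside the member rule, carried no end peaks. The gene table holds 6 with such a symbol ending in -ps or -ps and a number (Psma5-ps, Psmb5-ps, Psmb6-ps, Psmb6-ps2, Psmb7-ps1 and Psmb7-ps2). Copies under other names were not searched for. Of the 6, 0 had an ETS1 and 0 an ETS2 peak within 1 kb, beside 39.4% and 40% of protein-coding genes. No share over all pseudogenes is given here. Of the 6, 3 (Psmb6-ps, Psmb7-ps1 and Psmb7-ps2) lie on the X chromosome, where 2.38% and 0.621% of protein-coding genes had such a peak. The nearest peaks of Psmb5-ps on chromosome 11 lay 26463 bp (ETS1) and 27332 bp (ETS2) from an end, and those of Psma5-ps on chromosome 10 lay 29555 and 48203 bp away.

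Members just outside the 1 kb window were few. Between 1 and 2.5 kb from an end lay the nearest ETS1 peaks of Psmb7 and Psmb10 and the nearest ETS2 peaks of Psmc3 and Psme2. For all other members without an end peak the nearest peak of that list was further away.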
